A study of Mus musculus with 20 samples.

Results

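Brown adipose tissue (BAT) responds to cold within hours, and the comparison described here asks whether loss of the transcription factor C/EBP beta changes that response. For each gene it is the cold response of the knockout minus the cold response of the wild type, (KO_cold - KO_RT) - (WT_cold - WT_RT), called the interaction below. Wild-type (WT) mice and mice with an adipose-specific knockout (KO) of CEBPB were kept at room temperature (RT) or cold-stressed for 4 h, with 5 BAT libraries in each of WT_RT, WT_cold, KO_RT and KO_cold. All 20 of the 20 libraries entered the comparison, and 15233 of 55471 annotated genes passed the expression filter and were tested. The driver of the deletion, the temperature of the cold room and the age of the mice are not given in the sources used here. Nor do these sources say that libraries come from separate animals, so p-values measure the spread between libraries, which may be technical.

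Brown adipocytes burn fatty acids and glucose to make heat through the uncoupling protein Ucp1. Cold acts on them through norepinephrine and beta-adrenergic receptors, which raise cyclic AMP and switch on a wave of transcription. C/EBP beta is a leucine zipper factor that dimerises with other C/EBP proteins, binds DNA with the core TTGCNNAA, and takes part in adipocyte differentiation and in cyclic AMP responses. An interaction is positive where a gene rose more, or fell less, in KO than in WT, and negative where it rose less or fell more.

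The interaction was called for 113 genes, 0.742% of those tested, with edgeR's quasi-likelihood test at an adjusted p under 0.05. Of these, 65 (0.427%) were higher and 48 (0.315%) lower in the knockout's cold response, and 30 of the higher and 15 of the lower ones differed at least 2-fold. The median over all tested genes was -0.001. By comparison, cold itself was called for 56.4% of genes in WT and 59.2% in KO, and the knockout for 2.7% at RT and 7.7% in the cold. These 4 comparisons share their libraries with the interaction, so their values are set beside it as a description. The largest differences were in Klhdc7a (2.16) and Cnn1 (1.85) on the higher side and Cd274 (-2.22) and Tectb (-1.89) on the lower side, among called genes that reached 5 CPM.

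**Figure D1:**
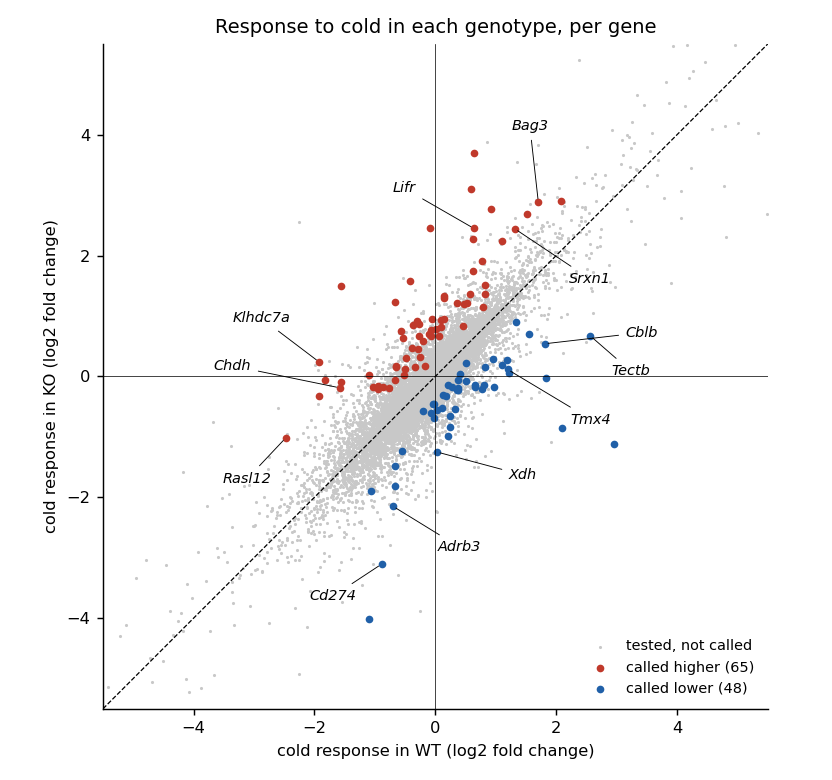
Cold response (log2 fold change, cold against RT) of each tested gene in WT on the x axis and in KO on the y axis, with the genes called higher (red) and lower (blue) in the interaction and the line of equal response (dashed). Most of the 15183 genes drawn lie along the line, called genes lie off it on either side, and 50 tested genes lie outside the axes.

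The libraries held 27.07 to 55.18 M gene counts. Cebpb, the targeted gene, stood at 75.5 to 130.4 CPM (gene counts scaled to library size) in WT_RT, 108 to 167 in WT_cold, 0.208 to 0.856 in KO_RT and 1.61 to 2.27 in KO_cold, so that every library was on the side its genotype label gives. Ucp1, which marks brown adipocytes, stood at 4852 CPM or more in every library. On the first principal component, which separated cold from RT, WT_RT replicate 4 (-23.4) and WT_cold replicate 5 (26.6) lay nearest the middle. By mean log2 CPM of marker genes these libraries also differed from their groups. Erythrocyte markers stood at 5.45 in WT_cold replicate 5, against 2.81 to 3.10 in the rest of its group. Neutrophil markers, of which 3 were tested, stood at 0.61 there, against -2.29 to -1.61. Muscle markers stood at -2.12 in WT_RT replicate 4, against 0.66 to 5.45 in the rest of its group. The part of these differences in the results was not tested. Skeletal muscle markers summed to 63.5 to 1770 CPM in WT_RT, 54.1 to 97.0 in WT_cold, 92.3 to 774.9 in KO_RT and 53.8 to 63.7 in KO_cold. None of the 24 muscle markers was called or had an unadjusted p under 0.05 by edgeR, while DESeq2 called none and had 1 higher and 5 lower at that p. Their median interaction was -1.99, which became -0.70 without WT_cold replicate 1 and -3.32 without WT_RT replicate 1, and results with muscle as a term are given where a call ended. In these whole-tissue samples, fewer cells of a type and less RNA per cell cannot be told apart.

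Promoter sequences are shown for 4 genes that carry different parts of the result, each from 250 bases before to 50 bases after the start site in RefSeq (GRCm38.p6), read in the direction of transcription. They were chosen after their values were seen. Windows of Tectb, Srxn1, Rgcc, Lurap1, Bag3 and Rasl12, also examined but not shown, held no match to the C/EBP core. Of all tested genes with a window, 10.2% had a match, so the 4 shown do not stand for the called genes. Klhdc7a (chr4:139967977-139968276, minus strand) had the largest positive interaction of the leading genes, and capitals mark 2 matches to the C/EBP core. Tmx4 (chr2:134644072-134644371, minus strand) rose in WT alone and has 1 match, in capitals.
Klhdc7a: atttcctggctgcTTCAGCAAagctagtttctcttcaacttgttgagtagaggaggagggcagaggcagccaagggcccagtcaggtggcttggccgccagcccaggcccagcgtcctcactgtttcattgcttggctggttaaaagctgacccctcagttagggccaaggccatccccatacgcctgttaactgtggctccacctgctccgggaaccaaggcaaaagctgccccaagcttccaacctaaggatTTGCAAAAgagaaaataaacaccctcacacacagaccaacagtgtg
Tmx4: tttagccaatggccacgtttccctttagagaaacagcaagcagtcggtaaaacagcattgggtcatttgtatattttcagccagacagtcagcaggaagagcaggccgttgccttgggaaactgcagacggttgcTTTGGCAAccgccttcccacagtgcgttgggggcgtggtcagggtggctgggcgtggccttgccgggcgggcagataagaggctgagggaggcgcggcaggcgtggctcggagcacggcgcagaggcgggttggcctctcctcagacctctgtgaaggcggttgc
Chdh (chr14:30008750-30009049, plus strand) and Cd274 (chr19:29367188-29367487, plus strand) each share a start region with a second called gene on the opposite strand, described below, and neither window holds the core.
Chdh: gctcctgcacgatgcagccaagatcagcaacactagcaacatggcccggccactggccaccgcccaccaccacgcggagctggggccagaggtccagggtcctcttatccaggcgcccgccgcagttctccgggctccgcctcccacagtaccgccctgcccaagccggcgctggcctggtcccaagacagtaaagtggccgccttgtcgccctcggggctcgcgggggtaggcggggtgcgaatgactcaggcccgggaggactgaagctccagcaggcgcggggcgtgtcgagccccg
Cd274: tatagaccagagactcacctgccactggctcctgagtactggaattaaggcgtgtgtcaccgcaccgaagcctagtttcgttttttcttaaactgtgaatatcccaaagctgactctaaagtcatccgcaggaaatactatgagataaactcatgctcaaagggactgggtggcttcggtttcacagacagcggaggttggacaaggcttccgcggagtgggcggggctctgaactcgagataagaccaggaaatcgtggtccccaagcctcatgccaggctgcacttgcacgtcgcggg

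The 65 higher genes fell into 5 patterns of response, by the cold comparison that was called in each genotype. In 17 genes the level fell in WT and the KO response was not called. In 20 it rose in KO and the WT response was not called. In 18 it rose in both, in 9 it fell in WT and rose in KO, and in 1, Rasl12, it fell in both. A response that was not called is not thereby absent. On the log2 scale, 44 of the 65 had the larger response in KO and 21 in WT. This split was not computed for all tested genes, so it describes the members only.

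Klhdc7a (ENSMUSG00000078234.6, chr4:139960220-139968026) led the first pattern. It stood at 178, 146, 250.3, 224 and 211 CPM in WT_RT and at 65.8, 41.8, 51.6, 40 and 67 in WT_cold. KO libraries held 231, 236, 195, 385 and 248 CPM at RT and 313, 326, 365, 257 and 266 in the cold. All 5 WT_cold libraries lay below all others, while the KO libraries at the 2 temperatures overlapped. The cold change was -1.92 in WT and 0.24 in KO, an interaction of 2.16 ± 0.27, adjusted p = 0.000852, or 4.46-fold.

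Chdh, the mitochondrial dehydrogenase that starts choline oxidation to betaine (ENSMUSG00000015970.19, chr14:30009023-30040527), followed the same pattern. Its levels were 106, 113, 93.2, 112 and 105 CPM in WT_RT and 44.5, 45.4, 26.2, 30.5 and 30.3 in WT_cold. KO_RT libraries held 118, 146, 130.1, 159 and 130.4 CPM and KO_cold libraries 84.6, 90.5, 151, 135 and 138. The WT_cold libraries were again the lowest of all, and KO was above WT at RT too without overlap, although the knockout at RT was not called (0.37 ± 0.17, adjusted p = 0.323). The interaction was 1.39 ± 0.24, adjusted p = 0.0081. Prox2, a homeobox factor related to Prox1 (ENSMUSG00000042320.17, chr12:85086385-85110759), fell in WT, with 5.71 to 8.16 CPM in WT_RT and 1.94 to 2.67 in WT_cold, against 5.42 to 7.49 in KO_RT and 4.12 to 8.06 in KO_cold (interaction 1.46 ± 0.23, adjusted p = 0.00332).

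Rasl12, a small GTPase of the Ras-like family, fell in both genotypes but further in WT. It stood at 60.5 to 75.6 CPM in WT_RT, 9.03 to 14.6 in WT_cold, 45.5 to 91.5 in KO_RT and 23.2 to 47.7 in KO_cold, and the interaction was 1.46 ± 0.27, adjusted p = 0.0146. Tpra1, an adipocyte-associated membrane protein, moved in opposite directions. Its WT libraries held 10.4, 11.9, 12.2, 9.47 and 10.5 CPM at RT and 6.74, 6.83, 6.38, 8.94 and 8.9 in the cold. Its KO libraries held 11.5, 9.84, 12.1, 10.2 and 10.4 CPM at RT and 14.2, 15.3, 14.2, 19.7 and 20.7 in the cold. The groups at RT overlapped, every WT_cold library lay below them and every KO_cold library above. The interaction of Tpra1 was 1.17 ± 0.17, adjusted p = 0.00151.

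Genes that rose in KO while no WT response was called included Slc20a2, a sodium-dependent phosphate transporter, and Bmpr1a, a receptor for bone morphogenetic proteins; both were chosen after their values were seen. Slc20a2 held 21.2 to 33.3, 21.1 to 31.3 and 23.8 to 31.1 CPM in WT_RT, WT_cold and KO_RT, against 43.1 to 58.1 in KO_cold (interaction 1.01 ± 0.18, adjusted p = 0.0081). Bmpr1a held 64.9 to 93.1, 66.9 to 101 and 68.3 to 77.1 CPM in the same 3 groups and 124 to 156 in KO_cold (interaction 0.79 ± 0.14, adjusted p = 0.0077). In both genes the KO_cold libraries stood above all the others. Dusp18, a dual-specificity phosphatase, stood at 20.1 to 30.1 CPM in WT_RT and 13.4 to 19.4 in KO_RT, without overlap. It had an interaction of 1.23 ± 0.24, adjusted p = 0.0207, but WT_cold replicate 5 (27.8 CPM) overlapped with KO_cold (22.7 to 40.3), which also overlapped with WT_RT, and the call ended without the expression filter (adjusted p = 0.0643).

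Atp8b1, a phospholipid flippase, stood at 2.97 to 4.13 CPM in WT_RT, 2.79 to 4.67 in WT_cold, 1.97 to 4.3 in KO_RT and 7.8 to 9.77 in KO_cold (interaction 1.18 ± 0.26, adjusted p = 0.0272). This call was among the less stable ones: it ended without KO_cold replicate 4, KO_RT replicate 2, WT_cold replicate 3 or 4, or WT_RT replicate 4, with adjusted p up to 0.062. It also ended with the muscle term (adjusted p = 0.0547) and without WT_RT replicate 4 and WT_cold replicate 5 together (adjusted p = 0.0922).

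Among the higher genes that rose in both genotypes, the rise was larger in KO by their selection. Srxn1, the sulfiredoxin that restores oxidised peroxiredoxins, stood at 51.7, 44.5, 42.7, 37.5 and 60.4 CPM in WT_RT and rose to 111, 135, 121, 132 and 89.4 in WT_cold. In KO it went from 58.3, 51.2, 50.1, 55.2 and 44.4 CPM to 243, 340, 305, 258 and 264. At RT the genotypes overlapped, and in the cold every KO library was above every WT library. Cold raised Srxn1 by 1.31 in WT and 2.44 in KO, an interaction of 1.13 ± 0.18, adjusted p = 0.00413.

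Bag3, a heat-inducible co-chaperone of Hsp70, rose in both genotypes, with 34.8 to 42.2 CPM in WT_RT, 72.2 to 160.3 in WT_cold, 27.2 to 40.5 in KO_RT and 220.2 to 274 in KO_cold (interaction 1.18 ± 0.21, adjusted p = 0.012). The lowest of the WT_cold values was that of replicate 5, and without it the gene was again called. Usp2, a ubiquitin-specific protease, rose in both genotypes, with 22.8 to 34.7 CPM in WT_RT, 56.1 to 92 in WT_cold, 23.6 to 37.4 in KO_RT and 126 to 229 in KO_cold (interaction 1.16 ± 0.23, adjusted p = 0.0208). That call ended without WT_RT replicate 4 and WT_cold replicate 5 together (adjusted p = 0.0533) and without the filter (adjusted p = 0.0632).

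Lifr, the receptor chain for leukemia inhibitory factor, stood at 71.7, 76.5, 75.1, 69.9 and 41.5 CPM in WT_cold and 119, 302, 289, 323 and 119 in KO_cold. At RT all 10 libraries lay between 39.7 and 46.1 CPM. The KO_cold libraries split, with replicates 1 and 5 near 119 CPM and the other 3 at 289 or above, yet all 5 lay above WT_cold. The interaction was 1.81 ± 0.35, adjusted p = 0.0208, and it was no longer called without WT_RT replicate 4 and WT_cold replicate 5 (adjusted p = 0.0648).

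Cnn1, the smooth muscle protein calponin, reached 22.9, 32, 18.5, 13.8 and 14 CPM in KO_cold against 6.09, 7.21, 8.88, 6.46 and 3.72 in WT_cold. At RT it stood at 2.54 to 5.16 CPM in WT and 2.6 to 3.46 in KO. The interaction was 1.85 ± 0.36, adjusted p = 0.0202, and the call ended without the expression filter (adjusted p = 0.0632). Cnn1 was the only one of 12 smooth muscle and pericyte markers to be called. The list had a median of 0.21, and 10 of its 12 members were positive. Mylk, the myosin light chain kinase, chosen after its values were seen, stood at the other end with -1.93 ± 0.60, adjusted p = 0.196. The list's summed level was 893 to 1021 CPM in WT_RT, 829.9 to 1605 in WT_cold, 877 to 988 in KO_RT and 902 to 1040 in KO_cold. The part of these cells in the result was not tested.

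**Figure D2:**
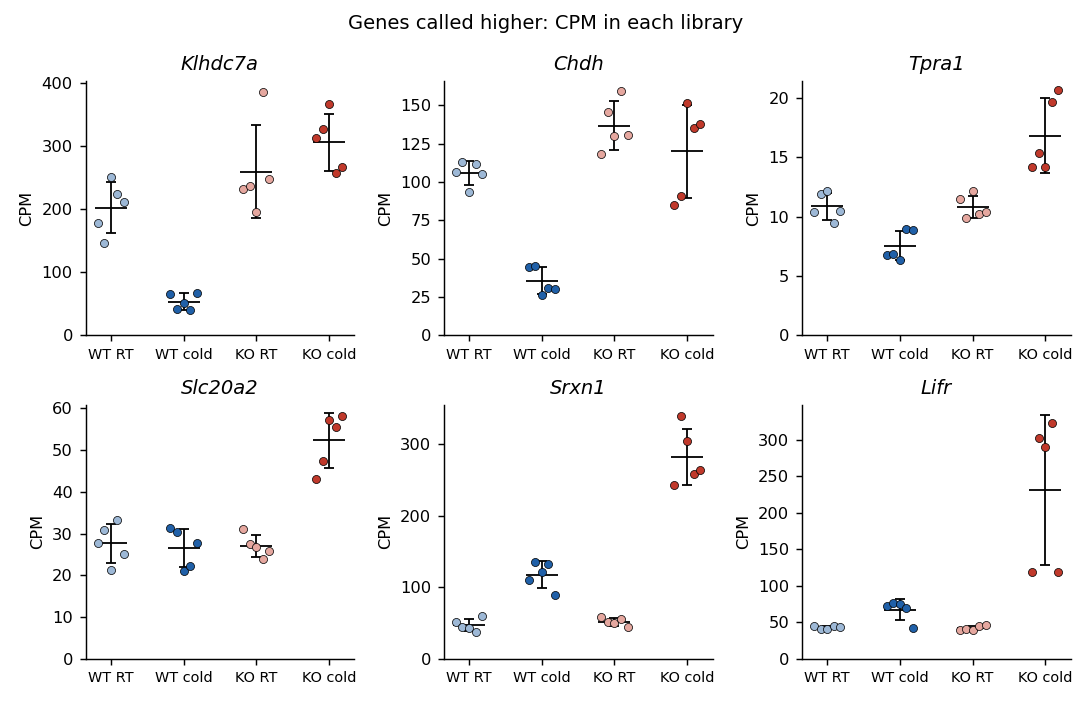
CPM of 6 genes called higher in the interaction, with a panel per gene, with each of the 5 libraries of a group as a point and the group mean and SD as a bar with whiskers; y axes start at 0. In Klhdc7a and Chdh the WT_cold libraries are the lowest, in Slc20a2, Srxn1 and Lifr the KO_cold libraries are the highest, and in Tpra1 both hold.

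Of the 48 lower genes, 16 rose in WT with no call in KO, 12 fell in KO with no call in WT, 8 fell in both, 7 rose in both and 5 rose in WT and fell in KO. The response was larger in WT for 27 of them and in KO for 21, again without the split over all tested genes. None of the 113 genes was called in the interaction without a called cold response in at least 1 genotype. The interaction is the difference between the cold responses of WT and KO, so such an outcome was likely beforehand. Cold was called for 56.4% of all tested genes in WT and 59.2% in KO. The share called in at least 1 genotype was not computed for all tested genes, so the outcome describes the members and tests nothing.

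Tmx4, a thioredoxin-related protein of the endoplasmic reticulum membrane (ENSMUSG00000034723.11, chr2:134594185-134644145), rose in WT alone. It stood at 81.8, 94.7, 68.3, 75.1 and 104 CPM in WT_RT and 179.5, 191, 193, 242 and 166 in WT_cold. In KO it stood at 95, 86, 70.8, 75.6 and 87.6 CPM at RT and 87, 94.3, 94.3, 83.8 and 90.2 in the cold. All WT_cold libraries were above the other 15. The cold change of Tmx4 was 1.20 in WT and 0.11 in KO (interaction -1.08 ± 0.15, adjusted p = 0.00145).

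Rgcc, a regulator of the cell cycle induced by complement (ENSMUSG00000022018.7, chr14:79288756-79301645), had the same shape. Its values were 85.6, 65.8, 93.2, 92.2 and 60 CPM in WT_RT and 159, 185, 220.2, 151 and 213 in WT_cold, against 70.5 to 99.5 and 71.4 to 104 in KO at RT and in the cold (interaction -1.17 ± 0.20, adjusted p = 0.00692). Nuak1, a kinase related to AMPK, rose in WT, with 11.6 to 15.8 CPM in WT_RT and 17.6 to 28.9 in WT_cold, against 9.66 to 12.4 in KO_RT and 7.76 to 10.7 in KO_cold (interaction -0.95 ± 0.16, adjusted p = 0.00692). Atf6, a membrane-bound sensor of the unfolded protein response, rose modestly in WT (0.41) and changed by 0.04 in KO. Its interaction of -0.37 ± 0.08 (adjusted p = 0.0261) was lost when any of 7 single libraries was left out, with adjusted p up to 0.0592.

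Trib1, a pseudokinase that directs C/EBP proteins to degradation (ENSMUSG00000032501.9, chr15:59648350-59657099), differed by genotype at both temperatures. WT libraries held 72, 73.7, 88, 101 and 91 CPM at RT and 141, 146, 151, 167 and 118 in the cold. KO libraries held 31.3, 27.7, 30, 33.7 and 41.4 CPM at RT and 25.2, 30.9, 25.5, 24.1 and 35.9 in the cold. No KO library reached the WT range at either temperature, and only WT rose in the cold. The interaction was -0.98 ± 0.18, adjusted p = 0.012, beside a knockout difference of -1.37 ± 0.13 (adjusted p = 1.18e-06) at RT. Usp33, a deubiquitinase chosen after its values were seen, likewise lay below WT at both temperatures and rose in both genotypes, with 82.4 to 105 and 185 to 238 CPM in WT and 50.8 to 65.4 and 62.5 to 78.2 in KO at RT and in the cold (interaction -0.91 ± 0.12, adjusted p = 0.000689).

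Tectb, beta-tectorin, best known as a matrix protein of the inner ear, rose in both genotypes but far less in KO. It stood at 2.76, 3.39, 2.26, 2.79 and 4.34 CPM in WT_RT and 17.7, 19.2, 19.7, 22.6 and 12.7 in WT_cold. In KO it went from 3.22, 2.83, 3.72, 2.49 and 2.17 CPM at RT to 4.75, 4.47, 3.57, 4.61 and 5.57 in the cold. The genotypes overlapped at RT and were apart in the cold, and the interaction was -1.89 ± 0.25, adjusted p = 0.000722, or 3.69-fold. Cblb, an E3 ubiquitin ligase that restrains receptor signalling, rose in both genotypes, with 14 to 19.8 CPM in WT_RT, 48.6 to 79.1 in WT_cold, 15.3 to 17.5 in KO_RT and 17.1 to 38 in KO_cold (interaction -1.27 ± 0.26, adjusted p = 0.0261). This call ended without the filter (adjusted p = 0.0643) and without any of KO_cold replicate 1, KO_RT replicates 1, 2 and 3, and WT_RT replicates 1 and 5 (adjusted p up to 0.0554).

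Cd274, the immune checkpoint ligand PD-L1 (ENSMUSG00000016496.7, chr19:29367455-29388095), fell in both genotypes and further in KO. Its values were 139, 118, 109, 126 and 119 CPM in WT_RT and 52.7, 47.8, 98.7, 65.1 and 65.3 in WT_cold. In KO they were 87.2, 113, 65, 82 and 139.8 CPM at RT and 12.5, 9.76, 10.9, 6.8 and 16.5 in the cold. The genotypes overlapped at RT, and in the cold the highest KO library stood below the lowest WT library. The interaction of -2.22 ± 0.33 (adjusted p = 0.00373) was the largest negative one of the leading genes.

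Adrb3, the beta-adrenergic receptor through which norepinephrine activates brown fat, also fell further in KO. It stood at 111, 115, 83.7, 64.9 and 90.8 CPM in WT_RT and 59.3, 50.3, 50.9, 67.8 and 57.4 in WT_cold, and at 112, 129, 86.9, 91 and 79.3 in KO_RT and 28.3, 13.7, 15.3, 30.1 and 24.7 in KO_cold. WT_cold overlapped with WT_RT, whose replicate 4 was low, while all KO_cold libraries were below all others. The interaction of -1.44 ± 0.30 (adjusted p = 0.0261) was not called without KO_RT replicate 2, WT_cold replicate 4 or WT_RT replicate 3 (adjusted p up to 0.054). Nor was it called without WT_RT replicate 4 and WT_cold replicate 5 together (adjusted p = 0.0754), or without the filter (adjusted p = 0.0643). Lurap1, a leucine-rich adaptor protein, fell in both genotypes, with 53.8 to 72.6 CPM in WT_RT, 33.8 to 47 in WT_cold, 55.4 to 64 in KO_RT and 16.2 to 19.7 in KO_cold, and its interaction of -1.15 ± 0.13 (adjusted p = 0.000333) was called in every alternative run.

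In the group that fell in KO alone, Slc16a10, a transporter of aromatic amino acids and thyroid hormone (ENSMUSG00000019838.11, chr10:40033532-40142258), stood at 38.7, 40.4, 48.9, 38.3 and 60.6 CPM in WT_cold and 15.7, 18.7, 19.9, 14.3 and 20 in KO_cold. At RT it stood at 34.3 to 43.1 CPM in WT and 28.4 to 40.9 in KO. The KO_cold libraries were below the other 15, and the interaction was -1.20 ± 0.18, adjusted p = 0.00212. Sowahc had 51.9 to 88.2 CPM in WT_cold and 27.7 to 31.3 in KO_cold, against 49.2 to 66.3 and 47.8 to 60.2 at RT (interaction -1.08 ± 0.16, adjusted p = 0.00212).

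Xdh, the xanthine dehydrogenase of purine breakdown, held 68.7 to 108 and 57.8 to 108 CPM in WT at RT and in the cold, and 63.5 to 111 and 34.4 to 40 in KO. Its interaction of -1.27 ± 0.24 (adjusted p = 0.0173) ended as a call without WT_RT replicate 4 and WT_cold replicate 5 (adjusted p = 0.0633). Insr, the insulin receptor, was chosen after its values were seen. It stood at 150.4, 155, 152, 168 and 209 CPM in WT_cold and 91.3, 94.2, 89.6, 101 and 101 in KO_cold, with 141 to 168 and 113 to 151 at RT. No KO_cold library overlapped with any other, and the interaction was -0.63 ± 0.12, adjusted p = 0.0173.

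**Figure D3:**
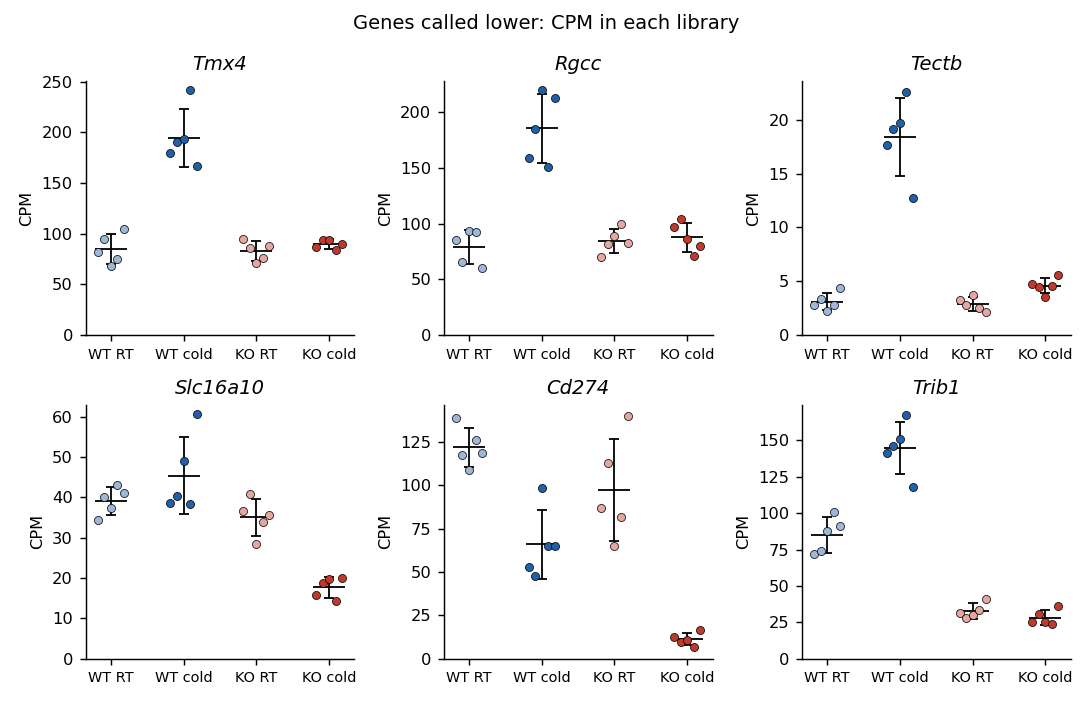
CPM of 6 genes called lower in the interaction, with a panel per gene, with libraries as points and the group mean and SD as a bar with whiskers; y axes start at 0. In Tmx4, Rgcc and Tectb the WT_cold libraries stand above all others, in Slc16a10 and Cd274 the KO_cold libraries stand below all others, and in Trib1 both KO groups lie below both WT groups.

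The genotype difference behind these genes was seen mostly in the cold. The knockout was called in the cold but not at RT for 58 higher and 40 lower genes, and at RT but not in the cold for 7 higher genes and 1 lower. It was called at both temperatures in the same direction for Usp33, Trib1, Dip2a and Met, and in opposite directions for Ergic1 and Fgfrl1. For Smim26 it was called at neither. Of the 20 fits with a library left out, the interaction was called in 4 for Met, 10 for Smim26 and 13 for Dip2a. WT_cold and KO_cold did not overlap for 54 of the 65 higher and 44 of the 48 lower genes, where 7% of all tested genes did not overlap. At RT the genotypes did not overlap for 10 higher and 9 lower genes, with 4.98% over all tested genes. Since the interaction uses these libraries, the counts describe the members and test nothing.

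The genes called for the knockout at RT but not in the cold differed from WT before the cold. Nt5e, the ecto-nucleotidase that makes adenosine, stood at 3.86, 3.62, 4.23, 2.4 and 5.66 CPM in WT_RT and at 1.32, 1.2, 0.956, 1.79 and 1.31 in KO_RT. In the cold it stood at 0.857 to 1.33 CPM in WT and 0.823 to 1.19 in KO. Only WT_RT stood apart, and the interaction was 1.59 ± 0.29, adjusted p = 0.00922. Zic1, a zinc finger factor used as a marker of brown fat, held 13.2, 9.6, 11, 10.4 and 15.8 CPM in WT_RT and 8.98, 7.49, 8.67, 11.5 and 9.28 in WT_cold, and 7.91, 8.27, 7.88, 9.41 and 9.09 in KO_RT and 10.1, 10.7, 14.5, 12 and 11.8 in KO_cold. It fell in WT (-0.39) and rose in KO (0.47). Its interaction of 0.86 ± 0.18 (adjusted p = 0.0243) was not called without KO_cold replicate 3, KO_RT replicate 3 or WT_RT replicate 1 (adjusted p up to 0.0538). Ergic1, a protein of the route from the endoplasmic reticulum to the Golgi, crossed over: KO was above WT at RT (0.34 ± 0.09, adjusted p = 0.0372) and below it in the cold (-0.46 ± 0.09, adjusted p = 0.00145), an interaction of -0.80 ± 0.12, adjusted p = 0.00257. Nt5e and Ergic1 were chosen after their values were seen.

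In the 34 gene lists the calls by edgeR were of single members. In 18 of the 24 pathway lists and 9 of the 10 marker lists edgeR called no member. In these lists DESeq2 called members of 3: 2 higher and 2 lower secreted factors, 1 higher gene of lipolysis and fatty acid uptake, and 1 higher gene of the integrated stress response. Each of the other lists held 1 called gene, except the thermogenesis list with Zic1 and Adrb3. At an unadjusted p under 0.05, 4.73% of all tested genes were higher and 5.41% lower, 1545 in all, and 49.8% of all tested genes were positive.

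Of 24 thermogenesis and brown adipocyte genes, 1 was called higher and 1 lower by edgeR, and 1 higher and 2 lower by DESeq2. At an unadjusted p under 0.05 by edgeR, 1 was higher and 3 were lower. The list's median was 0.01, with 13 of 24 positive and a range of -2.36 to 0.86. Ucp1 had an interaction of 0.21 ± 0.16, adjusted p = 0.732. For Dio2, which converts thyroid hormone to its active form, it was 0.45 ± 0.36, adjusted p = 0.753, and for Ppargc1a, the coactivator of mitochondrial biogenesis, it was 0.54 ± 0.40, adjusted p = 0.719. None of these 3, chosen after their values were seen, was called, which does not show that their cold responses were equal. Of 24 cyclic AMP-responsive immediate early genes only Junb, a subunit of AP-1, was called, with 17 of 24 positive and a median of 0.34. That median was 0.18 without WT_cold replicate 5, 0.20 without KO_cold replicate 5, and 0.14 without WT_RT replicate 4 and WT_cold replicate 5 together. Junb stood at 8.69, 10.1, 8.73, 7.96 and 7.16 CPM in WT_cold and 10.2, 18.9, 17.6, 15.1 and 21.7 in KO_cold, and at 4.77 to 5.65 and 3.14 to 6.18 at RT (interaction 1.15 ± 0.25, adjusted p = 0.0296). Its call was lost in 12 of the 20 fits with a library left out (adjusted p up to 0.0731), and also with the muscle term (adjusted p = 0.0598), with limma voom (adjusted p = 0.0763) and without the filter (adjusted p = 0.0934). It ended too without WT_RT replicate 4 and WT_cold replicate 5 together (adjusted p = 0.123).

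The list of 21 lipogenic genes holds lipogenic factors and genes of fatty acid synthesis, which builds fatty acids from citrate and acetate. It had the most negative median of the pathway lists, -0.79. None was called by edgeR, DESeq2 or limma voom, while 10 were lower and none higher at an unadjusted p under 0.05. Their median cold response was -0.23 in WT and -1.11 in KO. Fasn, the fatty acid synthase, stood at 2579, 5027, 3384, 978 and 2983 CPM in WT_RT and 1832, 1801, 2044, 3415 and 4499 in WT_cold. In KO it stood at 7193, 9323, 5619, 6170 and 3527 CPM at RT and 1391, 2468, 1544, 2251 and 3846 in the cold. Libraries of a group spread widely, with WT_RT replicate 4 the lowest of its group and WT_cold replicate 5 the highest, and the interaction was -1.33 ± 0.56, adjusted p = 0.424. Scd1, the stearoyl-CoA desaturase, had -0.67 ± 0.39, adjusted p = 0.604. Acss2, which makes acetyl-CoA from acetate and was chosen after its values were seen, had -1.25 ± 0.37, adjusted p = 0.169. Without WT_RT replicate 4 and WT_cold replicate 5 the list's median was -0.40, and 3 genes were lower at an unadjusted p under 0.05. With 1 library left out this count was 4 without WT_cold replicate 5, 5 without KO_cold replicate 1 or KO_RT replicate 2, and 6 without KO_cold replicate 3, WT_RT replicate 1 or WT_RT replicate 4.

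Of 21 genes of cholesterol synthesis and uptake none was called by edgeR, DESeq2 or limma voom and 7 were lower at an unadjusted p under 0.05, with a median of -0.29. That count was 4 without KO_RT replicate 2 or WT_cold replicate 5 and 2 without WT_RT replicate 4 and WT_cold replicate 5, and without WT_RT replicate 5 there was 1 call. Of 22 genes of the C/EBP family and adipogenic factors, Trib1 alone was called by edgeR, and DESeq2 called 1 higher and 2 lower. Pparg, the main regulator of fat cell identity, chosen after its values were seen, stood at 181 to 239.9 and 202 to 261 CPM in WT at RT and in the cold and at 199 to 230.3 and 149 to 177 in KO. Every KO_cold library was below all others, and the interaction of -0.45 ± 0.11 (adjusted p = 0.0674) missed the threshold. Cebpa, the paralog that acts in mature fat cells, fell in both genotypes, with log2 changes of -1.99 in WT and -2.34 in KO, with an interaction of -0.35 ± 0.32, adjusted p = 0.794. The residual signal of Cebpb itself had an interaction of 1.30 ± 0.31, adjusted p = 0.063, in libraries where the KO level was under 3 CPM.

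Of 20 heat shock proteins, Bag3 was called, 17 were positive and the median was 0.34, or 0.20 without WT_RT replicate 4 and WT_cold replicate 5. Cold raised the median member by 1.42 in WT and 1.61 in KO. Hspa8, the constitutive Hsp70, had an interaction of 0.58 ± 0.24, adjusted p = 0.395, and Hsp90ab1 0.33 ± 0.16, adjusted p = 0.478. Of 19 antioxidant and NRF2 target genes, edgeR called Srxn1 higher, and DESeq2 called 1 higher and 1 lower. By edgeR 6 others were lower at an unadjusted p under 0.05, and the median was -0.26. Without WT_cold replicate 5 the median was -0.15, without WT_RT replicate 4 it was -0.19, and without both it was -0.11, with 2 genes lower in each of these settings. Tkt, the transketolase of the pentose phosphate pathway, had -0.80 ± 0.23, adjusted p = 0.152, the opposite sign to Srxn1. Hspa8, Hsp90ab1 and Tkt were chosen after their values were seen.

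**Figure D4:**
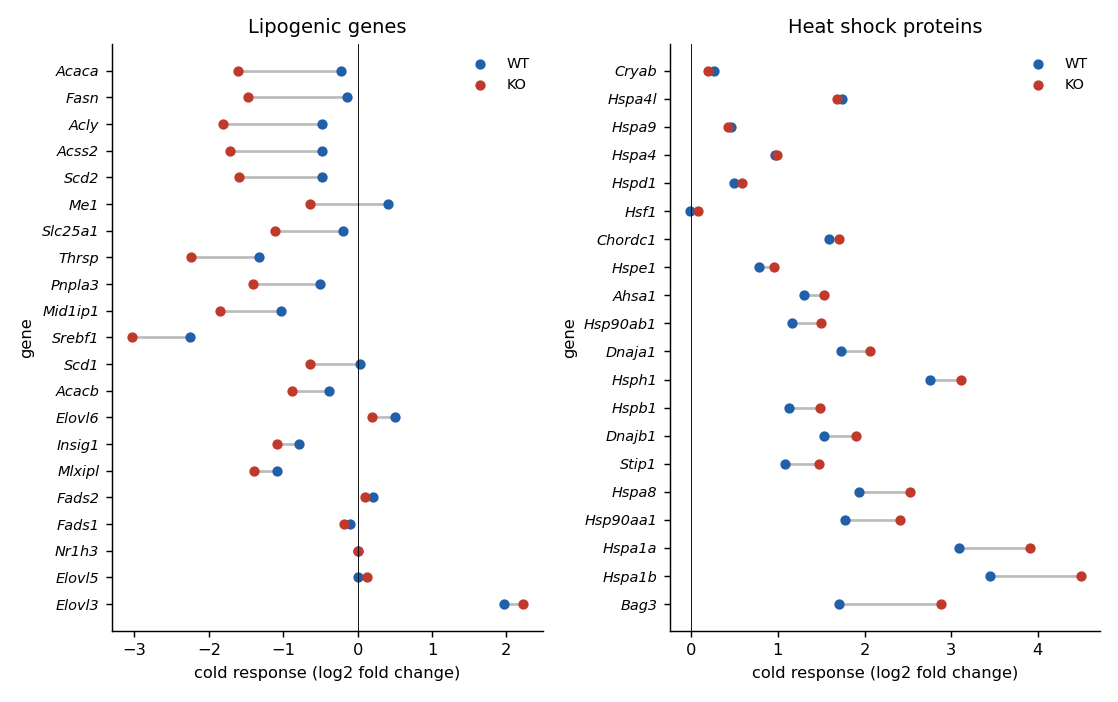
Cold response (log2 fold change) of the 21 lipogenic genes (left) and the 20 heat shock proteins (right), each gene on its own line with WT in blue and KO in red, ordered by interaction. Most lipogenic genes lie further left in KO than in WT, and Bag3 has the widest gap of the heat shock proteins; it is the only gene drawn that was called.

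Called genes were in some cases neighbours. Within 100000 bases of each other lay 6 pairs of called genes, 12 of the 113 genes, and in all 6 pairs both members had the same sign. Neither count was computed for all tested genes at this distance, so the 6 pairs are a description and test nothing. In 4 of these pairs the genes lie head to head on opposite strands, and in 3 of the 4 their starts are within 1000 bases. Il17rb, an interleukin receptor chain, and Chdh start 126 bases apart, with interactions of 1.76 and 1.39. Il17rb stood at only 0.758 to 1.39 and 0.176 to 0.46 CPM in WT at RT and in the cold and at 1.32 to 2.55 and 1.1 to 2.22 in KO, and its call ended without WT_RT replicate 4 and WT_cold replicate 5 (adjusted p = 0.07). Plgrkt, a plasminogen receptor, and Cd274 start 64 bases apart, with -0.83 and -2.22. Plgrkt fell in both genotypes, with 28.8 to 35.1 CPM in WT_RT, 11.9 to 19.7 in WT_cold, 30.1 to 33.1 in KO_RT and 6.68 to 11.5 in KO_cold, and its call ended in the same setting (adjusted p = 0.0554). Bet1l and Ric8a (-0.60 and -0.43) overlap by 621 bases on opposite strands.

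The other 3 pairs were Gm29686 and Cblb (-1.86 and -1.27, 25729 bases apart), Dusp18 and Slc35e4 (1.23 and 1.21, 5724 bases apart) and Ccno and Gpx8 (1.90 and 0.73, 51975 bases apart). The call of Gm29686 ended without KO_RT replicate 1 or 3 and without WT_RT replicate 4 and WT_cold replicate 5 together (adjusted p = 0.0633). That of Gpx8 ended without KO_RT replicate 2, 3 or 4 or WT_cold replicate 3 (adjusted p up to 0.0552). Over all tested genes, 1457 head-to-head pairs started within 1000 bases of each other and 58.7% had interactions of the same sign. Among the 18 such pairs with a called gene, 14 had the same sign, and both were called in 3. Called genes without a called partner included Prox2, whose neighbour Dlst had -0.02, and Rnmt (1.12), whose neighbour Fam210a had -0.28. The call of Rnmt ended without the filter (adjusted p = 0.069) and without WT_RT replicate 4 and WT_cold replicate 5 together (adjusted p = 0.0683).

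Of the 113 called genes, 88 had such a RefSeq promoter window that could be used. The core TTGCNNAA, searched on both strands, was in a window of 7 of 53 higher genes (13.2%) and 7 of 35 lower genes (20%), where 10.2% of 10883 tested genes had it. The shorter site TGACG of the cyclic AMP response element was in 32.1% of the higher and 20% of the lower genes, against 34.1% of all. The full site TGACGTCA, which contains it, was in 3.77%, 0% and 3.44%. For GAANNTTC, part of the heat shock element, the shares were 7.55% of higher, 8.57% of lower and 7.05% of all genes, and for the composite core TGATGNAA they were 3.77%, 2.86% and 2.78%. A match is a description of these 300 bases and not a binding site.

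How far the calls rest on single libraries is shown by leaving each out. The number of called genes then ran from 78 without KO_RT replicate 3 to 125 without WT_cold replicate 1. Of the 113 genes, 63 were called in all 20 such fits, and 45, among them 22 higher and 23 lower, in these and the 8 other alternatives. Klhdc7a, Prox2, Rasl12, Chdh, Bag3, Tpra1, Cd274, Tectb, Slc16a10, Rgcc, Lurap1, Tmx4, Sowahc, Trib1, Nuak1 and Srxn1 were among these 45.

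**Figure D5:**
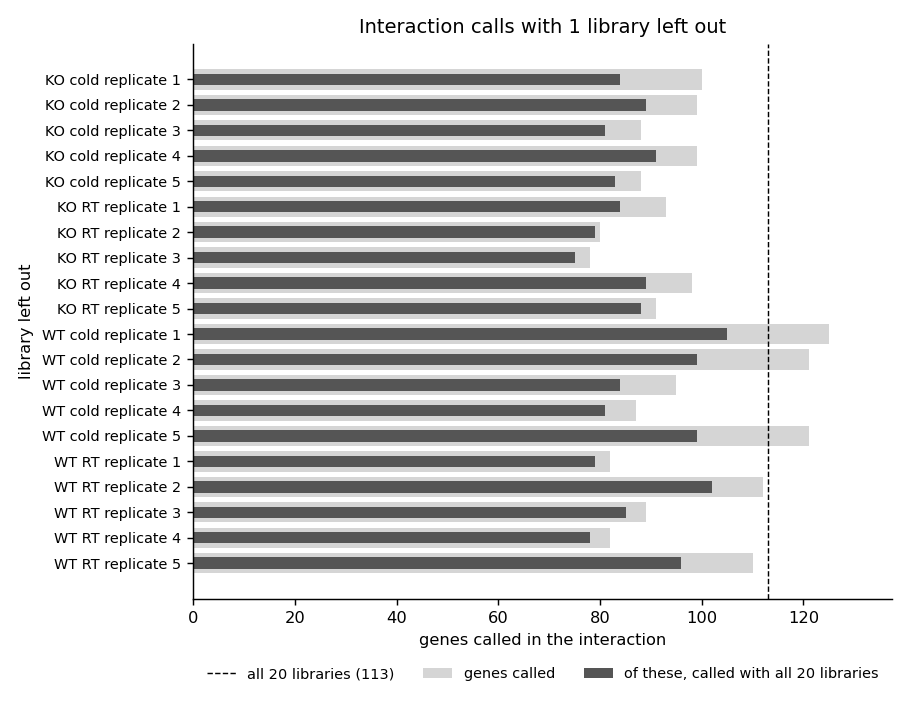
Number of genes called in the interaction (x axis) when the library named on the y axis is left out, in light grey, and how many of them are among the 113 called with all libraries, in dark grey; the dashed line marks 113. The count ranges from 78 to 125.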

How the data were processed

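Messenger RNA of mouse BAT was sequenced in 20 stranded libraries, 5 per group. The submitters' processing notes name Trim Galore 0.6.0 for trimming, STAR 2.7.8a for alignment and GRCm38 as the genome; the annotation release is not given in the sources used here. The authors deposited raw read counts for each gene, in the layout STAR writes, with 1 column for both strands and 1 for each strand. The reverse-strand column, with 94.5% to 95.7% of stranded gene counts, entered all tests; libraries held 27.07 to 55.18 M such counts. Reads assigned to no gene (27.6% to 30.8% of all reads) were left out. Among them were multimapping reads (18.3% to 21.4%) and unmapped reads (3.9% to 5.7%). Of 55471 IDs, 55144 had a symbol and 55230 matched GENCODE M21, whose GRCm38 gene coordinates are given. Within groups no pair of libraries was a repeat of another: chi-square per degree of freedom was 15.0 or more over the 40 pairs.

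Genes were filtered with filterByExpr of edgeR 4.0.16 (R 4.3.3; count minimum 10, total minimum 15), scaled by TMM and fitted with the robust quasi-likelihood test over all 4 groups, with 16 residual degrees of freedom. Benjamini-Hochberg adjustment ran over all 15233 genes (threshold 0.05), and differences are log2 with SE. CPM values use the TMM library sizes. The common biological coefficient of variation was 15.3%.

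Alternatives were relative log expression scaling, no filter, DESeq2 1.42.0, limma voom (limma 3.58.1), counts of both strands, a term for the mean of the muscle markers, the replicate number as a block, each library left out, and WT_RT replicate 4 with WT_cold replicate 5 left out. The genes open to naming were Cebpb, Cebpa, the 12 largest called differences in each direction (at least 5 CPM in a group, no predicted genes, no muscle markers) and, per list, up to 4 called members or the 2 of highest level where none was called. Gene lists, comparisons and the naming rule were chosen with earlier results of these data known. Response patterns, neighbours, promoter motifs and all other genes named were chosen after the values were seen.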

Additional observations from a re-analysis of the deposited data

Results flagged for a closer look

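The 24 leading genes were taken as the largest called differences, so that they pass the test of the difference between the cold responses by choice. Of these, Cnn1, Lifr, Dusp18, Atp8b1, Usp2, Junb, Adrb3, Xdh and Cblb lost the call in at least 1 alternative. On the higher side the 24 were Klhdc7a (2.16), Cnn1 (1.85), Lifr (1.81), Prox2 (1.46), Rasl12 (1.46), Chdh (1.39), Dusp18 (1.23), Bag3 (1.18), Atp8b1 (1.18), Tpra1 (1.17), Usp2 (1.16) and Junb (1.15), as log2 differences. On the lower side they were Cd274 (-2.22), Tectb (-1.89), Adrb3 (-1.44), Xdh (-1.27), Cblb (-1.27), Slc16a10 (-1.20), Rgcc (-1.17), Lurap1 (-1.15), Tmx4 (-1.08), Sowahc (-1.08), Trib1 (-0.98) and Nuak1 (-0.95).

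In 6 of 112 groups of 5 libraries (28 genes in 4 groups), a single library stood far from the other 4. Chance gives about 1 such group in 20. Klhdc7a was at 385.3 CPM in KO_RT replicate 4, against 195 to 247.5 in the others. WT_cold replicate 5 was low in Lifr (41.5 CPM against 69.9 to 76.5) and high in Dusp18 (27.8 CPM against 16.4 to 17.2). WT_RT replicate 4 was high in Atp8b1 (4.13 CPM against 2.97 to 3.25) and in Junb (5.65 CPM against 4.77 to 4.88). KO_cold replicate 4 was high in Atp8b1 (9.77 CPM against 7.80 to 8.24).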

How the results depend on the processing

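The 65 higher and 48 lower calls became 129 and 140 with DESeq2's Wald test, whose calls included all 113 genes, and 79 genes rather than 45 then differed at least 2-fold. Without the expression filter there were 40 higher and 50 lower calls, with 30678 genes tested, and 78 of the 113 genes were called again. With WT_RT replicate 4 and WT_cold replicate 5 left out there were 45 higher and 29 lower calls, 29 of at least 2-fold, and 65 of the 113 genes were called again. Leaving out each library in turn gave 44 to 74 higher calls, 33 to 58 lower calls and 37 to 55 calls of at least 2-fold. Relative log expression scaling called 111 of the 113 again, both strands 103, limma voom 100 and the muscle term 84. Whether the numbers of the labels pair the libraries was not settled. Over 30 same-numbered pairs the mean correlation of deviations was 0.029 (-0.184 to 0.274), with 7 pairs over 0.1. Over 120 pairs of other numbers it was -0.007 (-0.421 to 0.374), with 20 over 0.1. In all, 6 libraries correlated best with one of their own number. The ranges overlapped, so these values cannot decide the question. The replicate block gave 56 higher and 38 lower calls and called 88 of the 113 again; of the genes named by rule, it ended the calls of Atp8b1 (adjusted p = 0.057) and Junb (adjusted p = 0.068). All 113 genes kept their sign in every alternative except Ints10, which went to -0.029 (adjusted p = 0.964) with both strands. The cold change of the muscle marker Myl1 in KO turned to 0.153 (adjusted p = 0.415) with the muscle term. That term is the mean of a list that includes Myl1, so this value is not a separate check. The cause of the other changes was not tested. Of the higher and lower genes, 11 and 4 stood under a mean of 5 CPM in every group, where depth limits precision most.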

Other observations

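Several lists with no called gene had members that leaned to the same side, which is given here as values. Over all tested genes 49.8% were positive. The 28 nuclear genes of the respiratory chain had a median interaction of -0.10 (range -0.19 to 0.02), and 1 was positive. Of 13 mitochondrially encoded genes, 12 were positive, with a median of 0.20. Of 20 genes of ribosome biogenesis and RNA polymerase I, 18 were positive, with a median of 0.12. Endothelial markers were positive in 13 of 14 (median 0.18), and their summed level was 1023 to 1303 CPM in WT_RT, 1188 to 1390 in WT_cold, 865 to 1120 in KO_RT and 1272 to 1461 in KO_cold. Of 7 erythrocyte markers none was positive, with a median of -0.58, which turned to 0.26 without WT_cold replicate 5. Without WT_RT replicate 4 and WT_cold replicate 5 the medians were -0.09 for the respiratory chain and 0.12 for the mitochondrially encoded genes. In the same setting they were 0.06 for ribosome biogenesis, 0.10 for the endothelial markers and 0.30 for the erythrocyte markers. Members of a list share the libraries and are not independent, and these medians were not tested.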
